A study of Rattus norvegicus with 4 samples.

Results

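The genes described here are inflammatory, acute phase and complement genes, a set of 39 gene names covering adhesion molecules, NF-kB subunits and their regulators, cytokines and chemokines, cytokine receptors, acute phase proteins and complement factors. They were chosen by name, by exact match to the gene symbols in the count files. Of the 39 names, 38 were found and 1, Saa3, was not analysed here. Since the symbol Cfb stood on 2 gene rows, the set held 39 of the 22250 genes in the files. A low-count filter left 33 of these rows for testing, among 11335 genes tested in all.

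The cells were ventricular cardiomyocytes isolated from newborn Wistar rats of 1 to 2 days, a primary heart muscle culture purified by trypsin digestion and a Percoll gradient, and ribosome-protected fragments (footprints) were sequenced. The Cpeb4 siRNA group, in which the mRNA of the cytoplasmic polyadenylation element binding protein CPEB4 was silenced for 72 h, had 2 libraries, and the control siRNA group had 2 libraries. The growth protocol given for every library also names Torin1, an mTOR inhibitor, at 250 nM for 24 h, without saying which cells received it, so all 4 libraries are described with it. Separate cultures for the replicates are not stated, and a p-value here reflects only spread among these 4 libraries, which may be technical. The test used (edgeR) draws each gene's spread toward that of all genes tested, so a p-value does not rest on that gene's own replicates alone. Footprint counts report ribosome occupancy of an mRNA, and without matched RNA values they are not translation per mRNA. Fewer cells of a type and fewer footprints per cell cannot be told apart in such bulk libraries.

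Inflammatory signalling in many cell types starts at receptors for TNF, interleukin-1 and the interleukin-6 family. TNF and interleukin-1 receptors release NF-kB dimers from their inhibitors, whereas the interleukin-6 family acts through the shared receptor subunit gp130 (Il6st) and the transcription factor STAT3. Targets of these pathways include adhesion molecules that capture leukocytes, chemokines such as Ccl2, acute phase proteins such as Lcn2 and Reg3b, and complement factors. Many of these genes feed back on the pathway, as the inhibitors Nfkbia, Tnfaip3 and Socs3 do.

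Promoters were printed for the adhesion genes that changed in opposite directions and for Reg3b, the acute phase gene with the largest decrease, so that the NF-kB and STAT motifs near their starts can be read. They run from 250 bases before to 50 bases after the annotated start, 5′ to 3′ on the strand of the gene, and come from RefSeq with build GRCr8, matched by symbol, which was possible for 31 of the 39 names. The submitters' processing notes name Rnor_6.0 for the footprint data, and no coordinate was converted between the builds. Capitals mark matches, on either strand, to any of 3 short spellings within the kB motif (GGGNNTTTC, GGGNTTNCC and GGAAATTCC, where N is any base) or to the STAT motif TTCNNNGAA. The kB spellings can overlap in 1 site, as they do in the Nfkb1 promoter, and they were chosen with these promoters in view. The Vcam1 promoter (chr2:206742734-206743033, minus strand) held a pair of kB matches, 108 and 93 bases before the start. The Icam1 promoter (chr8:27829595-27829894, plus strand) held a kB match 218 bases and a STAT match 107 bases before the start, and the Reg3b promoter (chr4:112419526-112419825, plus strand) held a STAT match 129 bases before the start and no kB match in this window.
Vcam1: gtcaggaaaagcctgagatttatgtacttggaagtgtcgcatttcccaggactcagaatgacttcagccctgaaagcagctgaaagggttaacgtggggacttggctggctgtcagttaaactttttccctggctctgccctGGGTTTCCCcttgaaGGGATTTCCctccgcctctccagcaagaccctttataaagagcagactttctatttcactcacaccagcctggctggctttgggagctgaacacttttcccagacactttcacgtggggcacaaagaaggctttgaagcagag
Icam1: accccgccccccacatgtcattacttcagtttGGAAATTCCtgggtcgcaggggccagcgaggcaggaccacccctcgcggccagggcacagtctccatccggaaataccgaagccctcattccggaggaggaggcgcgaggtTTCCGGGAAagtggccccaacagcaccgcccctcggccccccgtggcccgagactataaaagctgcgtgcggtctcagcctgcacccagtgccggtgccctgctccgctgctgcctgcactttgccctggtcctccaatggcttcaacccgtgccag
Reg3b: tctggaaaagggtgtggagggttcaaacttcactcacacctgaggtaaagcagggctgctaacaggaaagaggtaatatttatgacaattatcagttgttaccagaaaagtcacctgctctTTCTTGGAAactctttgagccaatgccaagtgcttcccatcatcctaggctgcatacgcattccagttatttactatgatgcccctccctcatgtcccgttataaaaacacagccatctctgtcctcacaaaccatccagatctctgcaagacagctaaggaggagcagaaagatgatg

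The spelling GGGNNTTTC was present in 4.53% of 33469 promoters of this length and in 8 of the 31 members with a promoter. These were the NF-kB subunit and regulator genes Nfkb1, Nfkb2, Nfkbia, Nfkbiz and Tnfaip3, the chemokine Cxcl1, the cytokine Il6 and the complement protease C1r. The rarer spelling GGAAATTCC was present in 5 of the 31, against 0.332% of all promoters, and GGGNTTNCC in 4 of the 31, against 4.81%. Any of the 3 kB spellings was present in 11 of the 31, against 8.97% of all promoters, and the STAT motif in 3 of the 31 (Ccl7, Icam1 and Reg3b), against 8.87%. The percentages count promoters, whereas a member counted once if any promoter under its symbol matched, so the units differ. The 30-base windows that follow show the GGGNNTTTC match of each of the 8 genes in capitals, because most of these genes encode or feed back on NF-kB. A match describes the letters of the window and not binding. On GRCr8 the windows lie at Nfkb1 chr2:226805440-226805469, minus strand, Nfkb2 chr1:255108344-255108373, plus strand, Nfkbia chr6:78597053-78597082, minus strand, Nfkbiz chr11:58251698-58251727, plus strand; Tnfaip3 chr1:15544014-15544043, minus strand, Cxcl1 chr14:17479386-17479415, minus strand, Il6 chr4:5894624-5894653, minus strand, C1r chr4:159098870-159098899, plus strand.
Nfkb1: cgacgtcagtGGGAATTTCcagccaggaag
Nfkb2: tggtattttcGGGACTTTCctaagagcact
Nfkbia: ccgcccctgaGAAATCCCCtgccagcgttt
Nfkbiz: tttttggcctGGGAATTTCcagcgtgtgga
Tnfaip3: aagtccctcgGAAATCCCCctgtggcgaag
Cxcl1: cctgtgctccGGGAATTTCcctggcctgga
Il6: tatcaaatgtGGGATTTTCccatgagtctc
C1r: agcaagcaacGGGGATTTCaaaaccaaaac

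Counts in genes summed to 4889212 and 5910911 in Cpeb4 siRNA replicates 1 and 2, against 5863879 and 3554011 in control replicates 1 and 2. Levels are given as CPM, a gene's count scaled to 1000000 counts in genes of the same library, and are compared between libraries for the same gene only. The siRNA target Cpeb4 had 8.18 and 9.98 CPM in the Cpeb4 siRNA libraries, against 59.9 and 71.2 CPM in the control libraries, and fell (log2 fold change -2.86 ± 0.17 SE, edgeR adjusted p = 1.57e-09). Cardiomyocyte markers were abundant, with a summed level of 94758 and 87728 CPM for 11 markers in Cpeb4 siRNA libraries, against 83365 and 88640 CPM in control libraries. Across all genes tested, 174 (1.54%) rose and 212 (1.87%) fell, together 3.41% of the genes tested (edgeR quasi-likelihood test, adjusted p under 0.05).

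Within each group most members differed between the replicates in a common direction, which was opposite in the Cpeb4 siRNA and control groups. This bears on every comparison that follows. Cpeb4 siRNA replicate 1 was the lowest of the 4 libraries for 21 of the 33 members tested, against 25.0% of all genes tested. Control replicate 1 was the highest for 24 of the 33, against 23.7% of all genes. Both held for 19 of the 33, against 9.38% of all genes. The median member was 0.42 lower on the log2 scale in Cpeb4 siRNA replicate 1 than in replicate 2 (replicate 1 minus replicate 2, -0.42), and in the controls it was 0.34 higher in replicate 1 than in replicate 2. The same medians over all genes were -0.03 and 0.02. Some marker lists shared this pattern, lower in Cpeb4 siRNA replicate 1 and higher in control replicate 1. It held for 26 of the 33 members, 77.8% of 9 endothelial markers and 68.8% of 16 macrophage and leukocyte markers tested. The share was 45.5% for fibroblast, 25.0% for smooth muscle and pericyte, 14.3% for epicardial and mesothelial and 0% for cardiomyocyte markers, beside 29.8% of all genes. Cpeb4 siRNA replicate 2 is also the library whose file name states footprints of 29 to 33 nt, where the other 3 state 29 to 34 nt, and the part of this window in the spread was not tested.

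**Figure D1:**
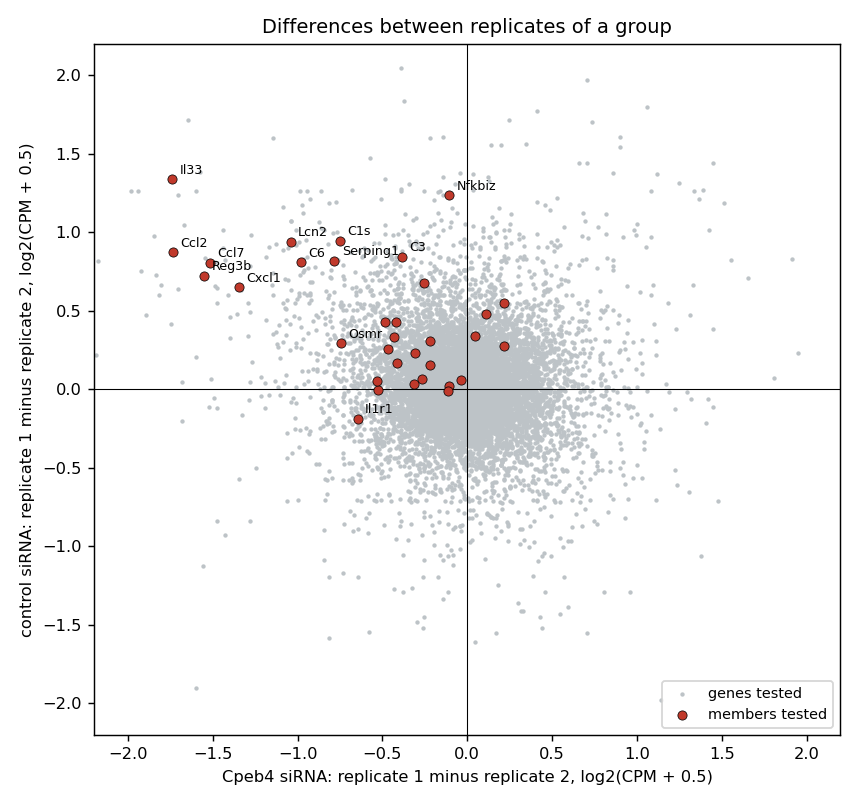
The log2(CPM + 0.5) difference between replicate 1 and replicate 2 within the Cpeb4 siRNA group (horizontal axis) and within the control siRNA group (vertical axis), for members tested (red) and all genes tested (grey, with 12 genes outside the axes). Of the 33 members, 26 lie in the upper left, lower in Cpeb4 siRNA replicate 1 and higher in control replicate 1, where 29.8% of all genes tested lie.

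Of the 33 members tested, 1 rose (Vcam1) and 3 fell (Icam1, Reg3b and C6) after Cpeb4 siRNA, beside 1.54% and 1.87% of all genes. DESeq2 called 0 of the 33 (1.58% of all genes), with 8 at an unadjusted p under 0.05 and 7 given no adjusted p, and limma-voom called 3 (3.31% of all genes). Without the low-count filter 10 of 35 members passed (4.18% of all genes), and 5 of 33, Tnfrsf1a being the gain, passed in a fit blocked by replicate number (3.56%). At an unadjusted edgeR p under 0.05 there were 3 higher and 12 lower members, where all genes gave 7.33% and 8.76%. The median log2 fold change of the members was -0.28 and 25 of 33 were negative, beside a median of -0.00310 and 50.5% negative over all genes tested. Both Cpeb4 siRNA libraries lay above both controls for 5 members (26.5% of all genes) and below both for 11 (19.5% of all genes), and the groups overlapped for 17. The 16 members with separate groups stand beside 46.0% of all genes, and the 15 at an unadjusted p under 0.05 beside 16.1%.

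**Figure D2:**
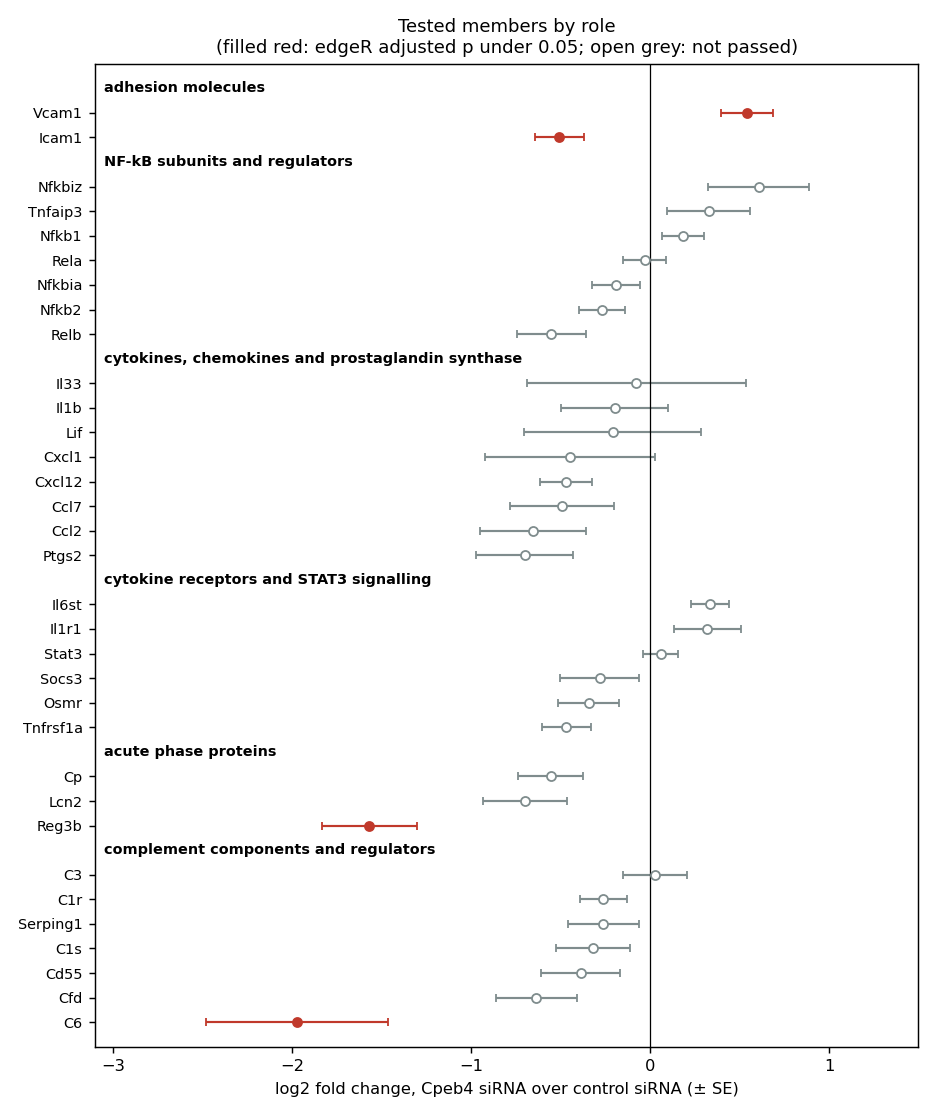
The log2 fold change of each member tested, Cpeb4 siRNA over control siRNA, with bars of ± SE from the edgeR fit over all genes, grouped by role. The 4 filled red points passed an adjusted p under 0.05, with Vcam1 above 0 and Icam1, Reg3b and C6 below it.

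The adhesion molecules were the group in which members passed in both directions. Vcam1, which binds integrins on leukocytes, had 64.8 and 93.4 CPM in the Cpeb4 siRNA libraries, against 53.2 and 53.5 CPM in the control libraries. Its groups did not overlap, and the control libraries were nearly equal while the siRNA libraries were apart. Vcam1 averaged 79.1 ± 20.2 CPM after Cpeb4 siRNA and 53.3 ± 0.179 CPM in controls (SD, n = 2 each). It rose 1.46-fold (log2 fold change 0.54 ± 0.15 SE, edgeR adjusted p = 0.0386). Icam1, the ligand of leukocyte beta-2 integrins, had 66.7 and 92.4 CPM after Cpeb4 siRNA, against 120.4 and 100.45 CPM in controls. Both siRNA libraries were below both controls, with replicate 1 the lower. Icam1 averaged 79.5 ± 18.2 CPM after Cpeb4 siRNA and 110.4 ± 14.1 CPM in controls (SD, n = 2 each). It fell, with a log2 fold change of -0.51 ± 0.14 SE (edgeR adjusted p = 0.0410).

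The ratio of Vcam1 to Icam1 counts does not depend on the library total. Both genes had separate groups, in opposite directions, so the ratio had to separate the groups too and adds no support. It was 0.972 and 1.01 in the Cpeb4 siRNA libraries, against 0.442 and 0.532 in the control libraries. Gene length scales this ratio alike in every library, so only its change between libraries can be read, and the pair was chosen, with 5 others, after its values were seen. The Vcam1 call ended without Cpeb4 siRNA replicate 2, where the log2 fold change was 0.27 (edgeR adjusted p = 0.414). It also missed the threshold without control replicate 1 (0.53, edgeR adjusted p = 0.138) or control replicate 2 (0.56, edgeR adjusted p = 0.0676), with a fold close to that in all 4 libraries. Its adjusted p ranged from 0.00284 to 0.414 over all alternatives. The Icam1 call ended without Cpeb4 siRNA replicate 1 (log2 fold change -0.31, edgeR adjusted p = 0.255) or control replicate 1 (-0.37, edgeR adjusted p = 0.370), with a range of 0.00304 to 0.370.

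**Figure D3:**
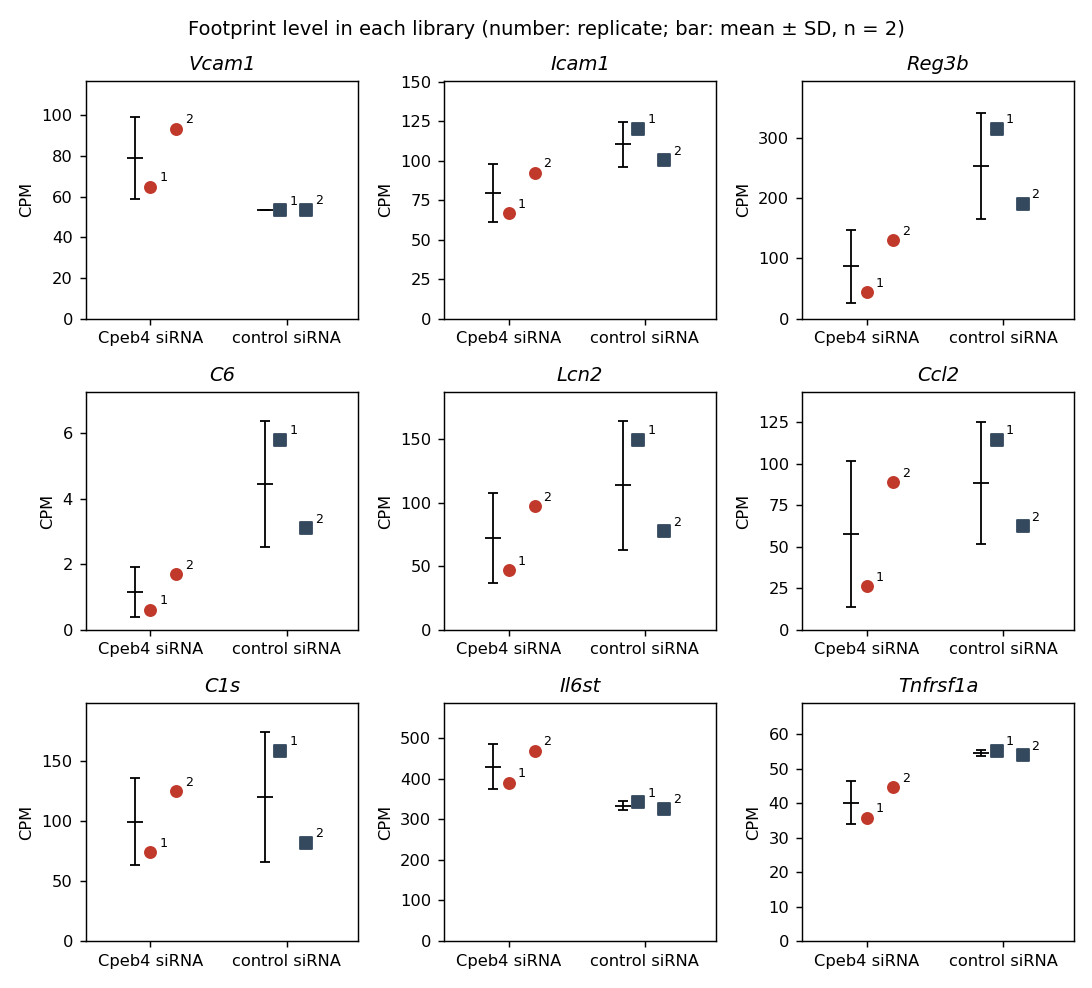
CPM of 9 members in each library, Cpeb4 siRNA (red circles) left of control siRNA (dark squares), with the replicate number beside each point and the mean ± SD (n = 2) as a black bar. Vcam1 and Il6st lie above the controls in both siRNA libraries, Icam1, Reg3b, C6 and Tnfrsf1a lie below them, and the groups overlap for Lcn2, Ccl2 and C1s.

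None of the 7 NF-kB subunits and regulators passed over all genes in edgeR, where 1 higher and 2 lower members had an unadjusted p under 0.05. Of all genes tested, 7.33% were higher and 8.76% lower at that p. Rela, the transactivating subunit of the classical dimer, was level across the libraries. It had 63.8 and 68.9 CPM in Cpeb4 siRNA libraries, against 66.8 and 65.8 CPM in controls, a log2 fold change of -0.03 ± 0.12 SE (edgeR adjusted p = 0.941). Nfkb1, the precursor of p50, had 112.5 and 131 CPM after Cpeb4 siRNA, against 110.5 and 99.0 CPM in controls. Nfkb2, the precursor of p52 in the alternative pathway, had 47.9 and 49.1 CPM, against 58.3 and 56.0 CPM in controls. The groups did not overlap for either precursor, higher for Nfkb1 (log2 fold change 0.19 ± 0.12 SE, edgeR adjusted p = 0.469) and lower for Nfkb2 (-0.27 ± 0.13 SE, edgeR adjusted p = 0.303), and neither passed. The count ratio of Nfkb1 to Nfkb2 was 2.35 and 2.68 in Cpeb4 siRNA libraries, against 1.89 and 1.77 in control libraries. This pair, too, was chosen after its values were seen. Both genes had separate groups, in opposite directions, so their ratio had to separate the groups.

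Relb, the transactivating partner of p52, lay on the same side as Nfkb2, with 14.5 to 18.1 CPM after Cpeb4 siRNA, against 21.4 to 25.2 CPM in controls (log2 fold change -0.55 ± 0.19 SE, edgeR adjusted p = 0.136). Nfkbia, the inhibitor that holds NF-kB in the cytoplasm, had 59.7 and 51.3 CPM after Cpeb4 siRNA, against 67.4 and 55.4 CPM in controls, with groups that overlapped. Control replicate 2 was the lowest library for both other feedback regulators. Nfkbiz, a nuclear inhibitor-like cofactor, had 14.1 to 15.2 CPM after Cpeb4 siRNA, against 5.06 to 12.6 CPM in controls (log2 fold change 0.61 ± 0.28 SE, edgeR adjusted p = 0.293). It passed only when control replicate 1 was left out (log2 fold change 1.49, edgeR adjusted p = 0.0186, the lowest of a range up to 0.877). The count ratio of Nfkbiz to Nfkbia was 0.236 and 0.297 in siRNA libraries, against 0.187 and 0.0914 in controls. Tnfaip3, the ubiquitin-editing protein A20, had 15.5 to 18.6 CPM, against 9.85 to 16.0 CPM in controls, and did not pass (log2 fold change 0.33 ± 0.23 SE, edgeR adjusted p = 0.533).

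All 8 cytokines, chemokines and prostaglandin synthase genes tested had negative log2 fold changes, with a median of -0.46, and none passed in edgeR, where 3 had an unadjusted p under 0.05. Of all genes tested, 50.5% were negative and 8.76% were lower at that p. Cpeb4 siRNA replicate 1 was lowest and control replicate 1 highest for 5 of the 8, beside 9.38% of all genes. Ccl2, a chemoattractant of monocytes, spread widely within both groups. It had 26.4 and 88.8 CPM in Cpeb4 siRNA libraries, against 114 and 62.2 CPM in controls. Only siRNA replicate 1 lay below both controls, and the groups overlapped (log2 fold change -0.65 ± 0.30 SE, edgeR adjusted p = 0.279). Its log2 fold change was -1.79 without Cpeb4 siRNA replicate 2 and -0.06 without Cpeb4 siRNA replicate 1. Ccl7, a chemokine related to Ccl2, had 11.9 and 34.9 CPM after Cpeb4 siRNA, against 40.8 and 23.1 CPM in controls, in the same order of libraries. The count ratio of Ccl2 to Ccl7 was 2.22 and 2.55 in siRNA libraries, against 2.81 and 2.695 in controls, so it varied far less than either gene did. Cxcl12, a chemokine made by stromal cells, had 47.7 and 64.5 CPM after Cpeb4 siRNA, against 84.6 and 67.0 CPM in controls. Its groups did not overlap, and its log2 fold change of -0.47 ± 0.14 SE missed the threshold (edgeR adjusted p = 0.0795).

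Ptgs2, the inducible cyclooxygenase of prostaglandin synthesis, had groups that did not overlap, with 5.73 to 7.78 CPM after Cpeb4 siRNA, against 10.1 to 11.4 CPM in controls (log2 fold change -0.70 ± 0.27 SE, edgeR adjusted p = 0.185). The cytokines themselves were near the lower end of detection. Il1b had 6.26 to 7.36 CPM in siRNA libraries, against 5.91 to 8.87 CPM in controls, and Cxcl1, a neutrophil chemoattractant, had 1.23 to 3.89 CPM, against 2.53 to 4.26 CPM. Lif, a ligand of gp130, lay at 1.86 to 2.05 CPM, against 1.69 to 2.56 CPM, and the alarmin Il33 at 0.614 to 3.21 CPM, against 0.844 to 2.90 CPM. Il6 was not tested, with 0 and 4 counts in Cpeb4 siRNA libraries, against 1 and 3 counts in control libraries. No difference in these 5 genes was detectable at these counts.

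Receptors and their signalling partners divided by family member, and none of the 6 passed over all genes in edgeR. Il6st, the gp130 subunit shared by the interleukin-6 family, had 390.2 and 469 CPM after Cpeb4 siRNA, against 341 and 326 CPM in controls. Both siRNA libraries were above both controls, with a log2 fold change of 0.33 ± 0.11 SE (edgeR adjusted p = 0.0886). Osmr, which pairs with gp130 to bind oncostatin M, had 35.6 and 59.9 CPM after Cpeb4 siRNA, against 65.3 and 53.2 CPM in controls. Its groups overlapped, with siRNA replicate 1 the lowest (log2 fold change -0.34 ± 0.17 SE, edgeR adjusted p = 0.336). The count ratio of Il6st to Osmr, also chosen after its values were seen, was 10.97 and 7.82 in siRNA libraries, against 5.22 and 6.13 in control libraries. Stat3, the transcription factor downstream, had 485 and 524 CPM, against 473 and 476 CPM in controls (log2 fold change 0.06 ± 0.10 SE, edgeR adjusted p = 0.835). Socs3, its feedback inhibitor, had 11.5 to 16.7 CPM, against 16.6 to 17.2 CPM in controls, with groups that overlapped.

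Tnfrsf1a, the main TNF receptor, was the uncalled member with the smallest adjusted p. It had 35.8 and 44.7 CPM after Cpeb4 siRNA, against 55.3 and 54.0 CPM in controls, so the groups did not overlap (log2 fold change -0.47 ± 0.14 SE, edgeR adjusted p = 0.0682). It passed with the replicate number as a block (log2 fold change -0.48, edgeR adjusted p = 0.0483), within a range of 0.0330 to 0.325. Il1r1, the signalling receptor of interleukin-1, had 25.98 and 40.9 CPM, against 24.9 and 28.4 CPM in controls, where only siRNA replicate 2 was above both controls (log2 fold change 0.32 ± 0.19 SE, edgeR adjusted p = 0.427).

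Of the acute phase genes, 1 of 3 tested fell, and the median log2 fold change was -0.70 with all 3 negative. Over all genes tested, 1.87% fell and 50.5% were negative. Reg3b, a secreted C-type lectin induced in injured tissues, had 44.0 and 129.8 CPM in Cpeb4 siRNA libraries, against 315 and 190.5 CPM in control libraries. The groups did not overlap, yet siRNA replicate 2 lay nearer to control replicate 2 than to the other siRNA library on the CPM scale. Reg3b averaged 86.9 ± 60.7 CPM after Cpeb4 siRNA and 253 ± 88.1 CPM in controls (SD, n = 2 each). It fell, with a log2 fold change of -1.57 ± 0.27 SE (edgeR adjusted p = 0.00111). The Reg3b call held with each library left out, with log2 fold changes of -2.55 to -1.01, but it ended under the outlier-resistant dispersion fit of edgeR (log2 fold change -1.57, adjusted p = 0.523) and also under DESeq2 (-1.58, adjusted p = 0.470), where the fold hardly moved. Over all alternatives its adjusted p ranged from 1.19e-35 to 0.523. Lcn2, which encodes the iron-siderophore binding protein lipocalin 2, had 47.0 and 97.3 CPM, against 149.6 and 77.7 CPM in controls. Its groups overlapped and it did not pass (log2 fold change -0.70 ± 0.23 SE, edgeR adjusted p = 0.112). With a library left out, its log2 fold change ran from -1.32 without Cpeb4 siRNA replicate 2 to -0.14 without control replicate 1. Cp, the copper-carrying ferroxidase ceruloplasmin, had 19.8 to 27.9 CPM, against 28.98 to 39.2 CPM in controls (log2 fold change -0.56 ± 0.18 SE, edgeR adjusted p = 0.105).

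Hp, the haemoglobin scavenger haptoglobin, had 1 and 0 counts in Cpeb4 siRNA libraries, against 2 and 3 in controls, too few to test. A2m, both gene rows named Cfb, and C4a had 0 counts in every library, which for counting error allows up to 0.614 and 0.508 CPM in Cpeb4 siRNA libraries and up to 0.512 and 0.844 CPM in control libraries. These zeros cannot be read as absence of the mRNA. Col1a2, a major collagen of heart fibroblasts, was likewise listed at 0 in every library while its partner Col1a1 had 5374 to 8586 CPM, and the file names state unique reads, which can leave out duplicated genes such as the Cfb and C4 copies. That was not tested.

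Among the complement genes, 1 of 7 tested fell and 6 of 7 had a negative log2 fold change, with a median of -0.32. Of all genes tested, 1.87% fell and 50.5% were negative. C6, a component of the membrane attack complex, had 3 and 10 counts in Cpeb4 siRNA libraries, against 34 and 11 counts in control libraries. That is 0.614 and 1.69 CPM, against 5.80 and 3.10 CPM, so the groups did not overlap but rested on few footprints. C6 averaged 1.15 ± 0.762 CPM after Cpeb4 siRNA and 4.45 ± 1.91 CPM in controls (SD, n = 2 each). It fell, with a log2 fold change of -1.97 ± 0.51 SE (edgeR adjusted p = 0.0318). The call ended without control replicate 1 (log2 fold change -1.40, edgeR adjusted p = 0.615) or Cpeb4 siRNA replicate 1 (-1.49, edgeR adjusted p = 0.169). Without Cpeb4 siRNA replicate 2 the log2 fold change was larger in size, -2.89, yet the call ended there as well. DESeq2 gave C6 no adjusted p, and the filter of at least 30 counts in 2 libraries left it out. Among the other alternatives its edgeR adjusted p was lowest, 0.00488, without the low-count filter.

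C1r and C1s, the serine proteases that start the classical pathway, shared their order of libraries with their inhibitor Serping1. C1r had 255 and 342 CPM after Cpeb4 siRNA, against 401 and 297 CPM in controls. C1s had 74.0 and 125 CPM, against 158 and 81.9 CPM in controls. In both, control replicate 1 was highest and siRNA replicate 1 lowest, the groups overlapped and the test was not passed (log2 fold changes -0.26 ± 0.13 and -0.32 ± 0.21 SE, edgeR adjusted p = 0.343 and 0.490). The count ratio of C1r to C1s was 3.44 and 2.74 in siRNA libraries, against 2.53 and 3.63 in controls, with groups that overlapped. Serping1, the C1 inhibitor, had 71.6 and 124 CPM, against 145 and 81.9 CPM in controls, in the same order. C3, the central component, had 56.7 and 74.1 CPM, against 79.3 and 43.9 CPM in controls. Both siRNA libraries lay between the controls, and the log2 fold change was 0.03 ± 0.18 SE (edgeR adjusted p = 0.961).

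Cfd, the protease that activates the alternative pathway, had groups that did not overlap, with 10.5 to 10.8 CPM after Cpeb4 siRNA, against 14.1 to 17.9 CPM in controls (log2 fold change -0.64 ± 0.23 SE, edgeR adjusted p = 0.142). Cd55, which dissociates complement convertases on the cell surface, had 11.2 to 13.2 CPM, against 13.8 to 17.2 CPM in controls, and did not pass (-0.39 ± 0.22 SE, edgeR adjusted p = 0.418).

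**Figure D4:**
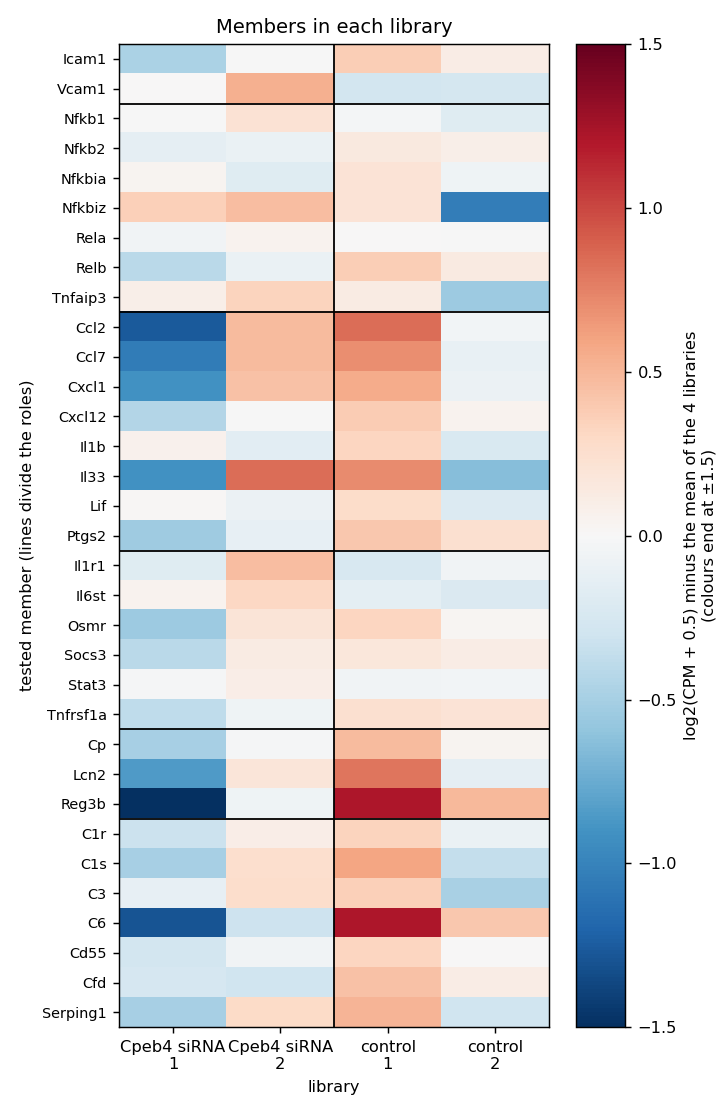
Each member tested (rows, divided by role) in the 4 libraries (columns, Cpeb4 siRNA on the left), as log2(CPM + 0.5) minus the mean of the 4 libraries, red above and blue below. Chemokines, acute phase and complement genes are mostly bluest in Cpeb4 siRNA replicate 1 and reddest in control replicate 1, while Rela and Stat3 are nearly white throughout.

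A set of 9 members shared the order Cpeb4 siRNA replicate 1, control replicate 2, Cpeb4 siRNA replicate 2 and control replicate 1, low to high, which 4.50% of all genes tested followed. They were Ccl2, Ccl7, Cxcl1, Osmr, Socs3, Lcn2, C1r, C1s and Serping1. The order was picked from the members' own values, so its share beside that of all genes is not a test. In this order Cpeb4 siRNA replicate 2 lies above control replicate 2, so the groups overlapped for each of the 9. For Socs3 these libraries were nearly level, at 16.7 and 16.6 CPM. Among macrophage and leukocyte markers, 5 of 16 tested followed the same order, namely Cd68, Laptm5, Lyz2, Mrc1 and Tyrobp. The summed level of these 18 markers was 876 and 1043 CPM in Cpeb4 siRNA libraries, against 1171 and 853 CPM in control libraries, and the lymphocyte marker Cd3e was at 0. Lyz2, the macrophage lysozyme, had 62.6 and 130.4 CPM, against 174 and 107 CPM in controls, whereas the receptor Csf1r had 110.04 and 111 CPM, against 115 and 88.1 CPM. The 3 C1q genes, which macrophages express, were in the same list with positive log2 fold changes, and C1qa had 87.3 and 63.1 CPM, against 68.6 and 59.1 CPM. No macrophage marker passed, with 1 higher and 3 lower at an unadjusted edgeR p under 0.05, beside 7.33% and 8.76% of all genes. The part of leukocytes in the members' values was not tested.

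The 12 fibroblast markers summed to 10450.2 and 9886 CPM after Cpeb4 siRNA, against 14178 and 13147 CPM in controls, and Col1a1 made up most of both sums, with 6072 and 5374 CPM, against 8586 and 7867 CPM in controls. Of 11 tested, 2 fell (1.87% of all genes), Mgp (log2 fold change -0.70 ± 0.10 SE, edgeR adjusted p = 0.000158) and Col1a1 (-0.55 ± 0.11 SE, edgeR adjusted p = 0.00339), and Col1a2 was at 0. Thy1 and Tcf21 had positive log2 fold changes (0.21 ± 0.22 and 0.10 ± 0.19 SE) and Dpt lay at -0.01 ± 0.19. The Col1a1 call ended without Cpeb4 siRNA replicate 2 (log2 fold change -0.45, edgeR adjusted p = 0.0942) or control replicate 1 (-0.50, adjusted p = 0.0552), within a range of 7.27e-09 to 0.0942, and the Mgp call held in all 15 alternatives. The fibroblast markers Dcn, Lum and Postn also followed the order of libraries given for the members, and the part of fibroblasts in the members' values was not tested. Endothelial markers summed to 319 and 354 CPM for 11 genes, against 360.2 and 324 CPM in controls, with Robo4 at 0. Of 9 tested, edgeR called 0 and 0 had an unadjusted p under 0.05, beside 3.41% and 16.1% of all genes. Of these 9, Emcn and Kdr (22.2%) followed the shared order of libraries. Kdr was nearly level, with 34.2 and 34.3 CPM after Cpeb4 siRNA, against 35.5 and 34.3 CPM in controls. The part of endothelial cells in the members' values was not tested. Smooth muscle and pericyte markers summed to 6198 and 6571 CPM for 8 genes, against 5907 and 5963 CPM, and epicardial and mesothelial markers to 339.9 and 306 CPM for 8 genes, against 365 and 376 CPM.

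Few other genes of the same pathways passed the test. Of 29 tested genes of the TNF, interleukin-1 and NF-kB pathways outside the set, edgeR called 0, beside 3.41% of all genes. None had an unadjusted edgeR p under 0.05, beside 16.1% of all genes, and the median log2 fold change was -0.03. The smallest p values were those of Traf3, a negative regulator of the alternative pathway (-0.42 ± 0.24 SE, edgeR adjusted p = 0.408), and Il1rap, the co-receptor of Il1r1 (0.31 ± 0.18 SE, edgeR adjusted p = 0.410). Of 16 tested genes of the interleukin-6 family and JAK-STAT pathway, 1 rose (1.54% of all genes) and the median was -0.01. Socs2, a feedback inhibitor of cytokine and growth hormone receptors, had 46.2 and 48.7 CPM after Cpeb4 siRNA, against 28.3 and 35.2 CPM in controls. It rose 1.49-fold (log2 fold change 0.57 ± 0.15 SE, edgeR adjusted p = 0.0343), within a range of 0.00799 to 0.4997 over all alternatives. The call ended without control replicate 1 (log2 fold change 0.39, edgeR adjusted p = 0.4997). It also ended without Cpeb4 siRNA replicate 1 (0.60, edgeR adjusted p = 0.0670) or replicate 2 (0.55, edgeR adjusted p = 0.139), where the fold stayed close to that in all 4 libraries.

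Of 13 other complement genes tested, edgeR called 0, beside 3.41% of all genes, and the median was 0.09. At an unadjusted p under 0.05, 1 was higher and 2 were lower, beside 7.33% and 8.76% of all genes. The smallest p values were those of Masp1, a protease of the lectin pathway (0.36 ± 0.14 SE, edgeR adjusted p = 0.187), and clusterin, Clu, an inhibitor of the membrane attack complex (-0.23 ± 0.10 SE, edgeR adjusted p = 0.248).

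The number of members called depended on which library was left out. Without control replicate 2, 10 of 33 fell and 0 rose, where 1.38% of all genes fell. These 10 were Reg3b, C6, Ccl2, Ccl7, Lcn2, C1s, Cp, Icam1, Cxcl12 and Serping1. Without Cpeb4 siRNA replicate 2, 8 of 33 fell, where 1.49% of all genes fell, among them Osmr (log2 fold change -0.76, edgeR adjusted p = 0.0240) and Tnfrsf1a (-0.63, edgeR adjusted p = 0.0483). Without Cpeb4 siRNA replicate 1, Vcam1 and Il6st rose and Reg3b fell, 3 of 33 beside 2.75% of all genes. Without control replicate 1, Nfkbiz rose and Reg3b fell, 2 of 33 beside 1.86% of all genes. Reg3b was thus the member called in all 4 of these fits. The median of the members was -0.47 without control replicate 2 and -0.60 without Cpeb4 siRNA replicate 2, against -0.06 without Cpeb4 siRNA replicate 1 and -0.03 without control replicate 1. Each of these fits leaves a group with 1 library. The spread then comes from the other group, drawn toward that of all genes tested. Calls there could stand beside wide replicates. Without control replicate 2, Reg3b and Lcn2 were called with siRNA replicates at 44.0 and 129.8 CPM and at 47.0 and 97.3 CPM.

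**Figure D5:**
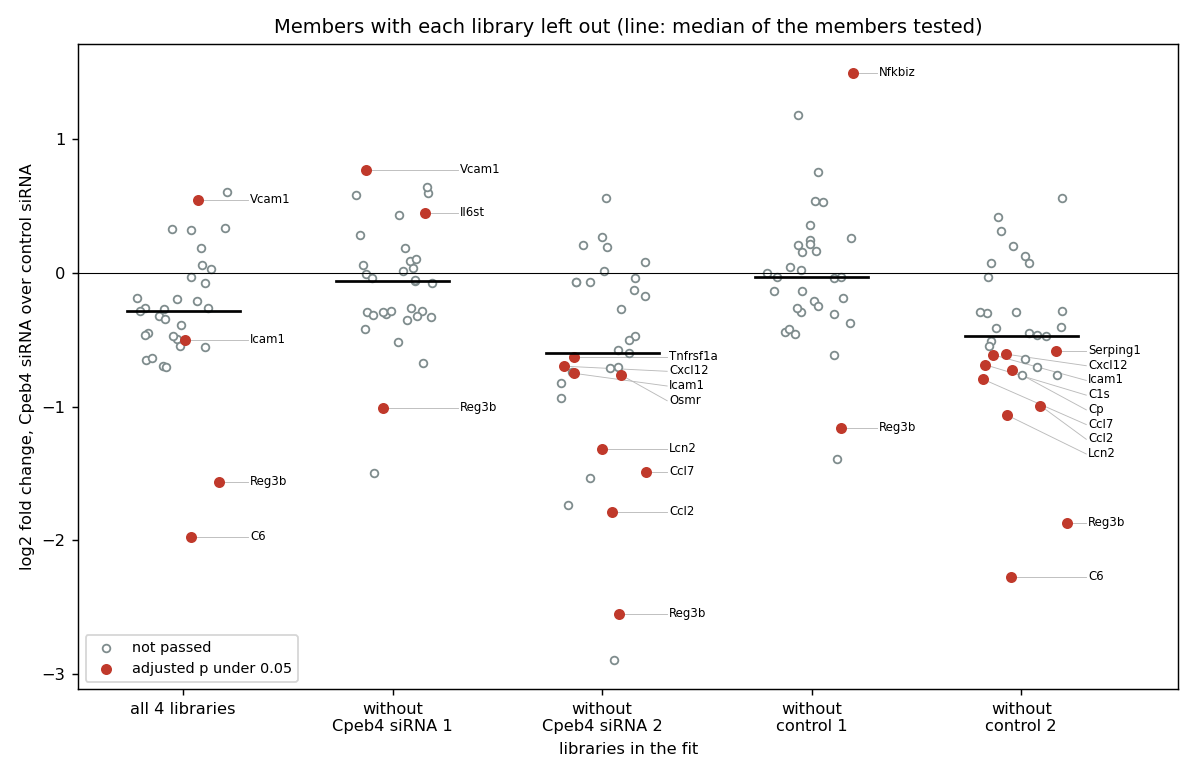
The log2 fold change of every member tested, Cpeb4 siRNA over control siRNA, with all 4 libraries and with each library left out, where red points passed an edgeR adjusted p under 0.05 and the black line is the median. The median lies near 0 without Cpeb4 siRNA replicate 1 or control replicate 1, and it is -0.60 and -0.47 without Cpeb4 siRNA replicate 2 or control replicate 2, where 8 and 10 members fell.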

How the data were processed

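The deposited files hold raw footprint counts per Ensembl gene, not normalised by the authors. Bowtie2, STAR 2.7, HTSeq 0.12 and the rat build Rnor_6.0 are named in the submitters' processing notes, without their roles, and a strand setting was not found in the sources used, so overlapping and antisense genes are uncertain. The 5 HTSeq summary rows, of which reads without a feature made up 4.42% to 4.63% of each library, were left out. Replicates differed by more than sampling noise (chi-square per degree of freedom 5.32 for Cpeb4 siRNA and 3.00 for controls). Groups were compared in R 4.3.3 with edgeR 4.0.16 (quasi-likelihood F test), TMM scaling, filterByExpr at a minimum count of 10, the group as the only term, two-sided p and Benjamini-Hochberg adjustment over 11335 genes. SE was derived from the F statistic. The workflow was tested on simulated data. Alternatives used DESeq2 1.42.0, limma 3.58.1, other scalings and filters, thinning, a replicate block and each library left out. Precision is limited by 2 libraries a group, and the floor of 3 counts for a gene at 0 covers counting error only. The members and lists were chosen with earlier results of these data known. Library values are printed for members called or with at least 100 counts in every library (Ccl7 was added), and the others are given by range. In other lists, called genes or the 2 smallest p values are named, and further markers were chosen after their values were seen. Results for other acute phase genes outside the set and for 1 leukocyte marker are not reported here.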

Additional observations from a re-analysis of the deposited data

How the results depend on the processing

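Over 15 alternative settings, 482 values of single members were recomputed. Of these, 428 kept their direction and side of the threshold, 15 lost and 22 gained an adjusted p under 0.05, and 17 changed sign, none of the last with a call. Cpeb4 kept its call in all 15 alternatives. The count of genes changed was 386 in the edgeR fit, 179 in DESeq2 and 606 without the low-count filter, and from 212 to 318 with a library left out. The count of members changed was 4, against 0 in DESeq2, 10 without the low-count filter and 2 to 10 with a library left out. The members' median ran from -0.60 to -0.03 with a library left out. Changes of sign with a library left out were seen for Rela (-0.072 to 0.014), Il1b (-0.41 to 0.16), Lif (-0.41 to 0.16), Il33 (-1.73 to 1.18), Ccl7 (-1.49 to 0.037), Cxcl1 (-1.53 to 0.089), Il1r1 (-0.039 to 0.59), C1s (-0.74 to 0.24), C3 (-0.29 to 0.54) and Serping1 (-0.70 to 0.22). Rela was also positive with library totals only (0.000377) and when thinned (0.074). The cause was not tested. Icam1 lost its call with library totals only (edgeR adjusted p = 0.0859), and C6 when thinned to the smallest library (0.119). The labels do not say whether libraries of the same number were paired, and 2 libraries a group cannot settle it. Same-numbered deviations correlated at -0.11 across genes tested and at -0.54 across members tested. With the replicate block, 403 genes and 5 members (3.56% of all genes) were called. With the numbers crossed, a setting chosen after seeing the data, 481 of the 11335 genes tested and 8 of the 33 members were called. Low counts limit C6, Il33, Lif and Cxcl1.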
